A study of Mus musculus with 6 samples.

Results

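The genes described here are 34 enzymes, enzyme subunits and regulators that carry glucose to lactate or, through pyruvate, into the tricarboxylic acid (TCA) cycle. They were taken by symbol: a row of the deposited gene table belonged to the set if its Ensembl identifier had one of the 34 symbols in GENCODE mouse release M21, and all 34 symbols had 1 row each among the 17889 rows of the table. The table came from mRNA sequencing of the prefrontal cortex, taken on postnatal day 28 from C57BL/6J mice. It held 3 samples titled Hetero, whose genotype is given as Cyfip2 mutant, and 3 wild-type (WT) samples. The labels give neither the design of the Cyfip2 allele nor whether a sample was 1 animal or a pool, so each p-value rests on how far these 6 samples scatter, and that scatter may be technical. Cyfip2 encodes a subunit of the WAVE complex, which controls actin assembly.

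Glycolysis splits glucose into pyruvate in the cytosol, beginning with hexokinase and ending with pyruvate kinase. Lactate dehydrogenase interconverts pyruvate and lactate, while the mitochondrial pyruvate carrier and the pyruvate dehydrogenase complex feed pyruvate carbon to the TCA cycle as acetyl-CoA. The brain runs mainly on glucose, and neurons depend heavily on mitochondrial oxidation, whereas astrocytes are known for active glycolysis and lactate release. Several steps have isoenzymes that differ between cell types: enolase 2 is a classical neuronal marker, and aldolase C a marker of astrocytes.

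Values are normalized counts, scaled by the authors in a way not given in the sources used here, and the sample totals were similar. Estimated from the spacing of low values, about 26500000, 29400000 and 43900000 reads lay behind Hetero samples 1 to 3 and 35700000, 25600000 and 25500000 behind WT samples 1 to 3. Cyfip2 read 18285 to 21237 in the Hetero samples and 27503 to 31933 in the WT samples, with a log2 change of -0.57 (limma adjusted p = 0.31). Of the cortical excitatory neuron markers 8 of 8 were measured, the lowest being Fezf2 with a mean of 793. The 6 striatal markers were measured too, with summed levels of 3671 to 3868 in Hetero and 3125 to 3656 in WT, the lowest being the receptor Drd2 with a mean of 21.3. Summed levels of markers varied between samples for oligodendrocytes (97308 to 127236 in Hetero and 92004 to 148342 in WT) and erythroid cells (21029 to 52504 in Hetero and 14808 to 46065 in WT). Those of oligodendrocyte precursors were 7773 to 9171 in Hetero and 9047 to 10790 in WT, and those of cortical excitatory neurons 181601 to 189328 in Hetero and 194497 to 201972 in WT. Sums follow the most abundant markers. The mean log2 deviation of the excitatory markers overlapped, at -0.087 to 0.040 in Hetero and 0.0003 to 0.047 in WT, and 3 of the 8 were higher in Hetero. That of the precursor markers was -0.26 to -0.015 in Hetero and 0.020 to 0.22 in WT, with 6 of 6 lower in Hetero. The part of these cell types in the results was not tested.

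The set was highly expressed. Its 34 genes made up 1.28%, 1.24% and 1.35% of the table total in Hetero samples 1 to 3 and 1.26%, 1.34% and 1.28% in WT samples 1 to 3. To compare genes with each other, values were divided by the mean length of the gene's protein-coding transcripts. On this per-kilobase scale the 13 glycolytic genes carried 73.1% ± 0.34 of the set's signal in Hetero samples and 73.3% ± 0.42 in WT samples (SD, n = 3 each). The 11 TCA cycle genes carried 14.3% ± 0.23 in Hetero and 14.1% ± 0.23 in WT, and the 8 genes of pyruvate import and oxidation carried 4.13% ± 0.082 in Hetero and 4.05% ± 0.16 in WT. Lactate dehydrogenase supplied the remaining 8.47% ± 0.11 in Hetero and 8.61% ± 0.11 in WT. In bulk tissue, fewer cells of a type and less RNA per cell cannot be told apart in any of these values.

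Levels differed widely between steps. Gapdh, which oxidises glyceraldehyde 3-phosphate, had the highest level, with 65056 normalized counts per kilobase in Hetero and 66155 in WT. Aldoa, the aldolase that splits fructose bisphosphate, followed with 33712 in Hetero and 34317 in WT, and the pyruvate kinase gene Pkm with 29120 in Hetero and 29122 in WT. Dividing by the longest protein-coding transcript instead kept these 3 genes first, in the same order. At the other end stood Pdk1, a kinase that inhibits pyruvate dehydrogenase, with 448 in Hetero and 444 in WT, and Dlat, the acetyltransferase core of that complex, with 637 in Hetero and 618 in WT. The position of Hk1, the main brain hexokinase, rested on the length: 11197 in Hetero and 11582 in WT with the mean length, against 3257 in Hetero and 3368 in WT with the longest transcript. Gene values do not separate the M1 and M2 splice forms of Pkm.

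**Figure D1:**
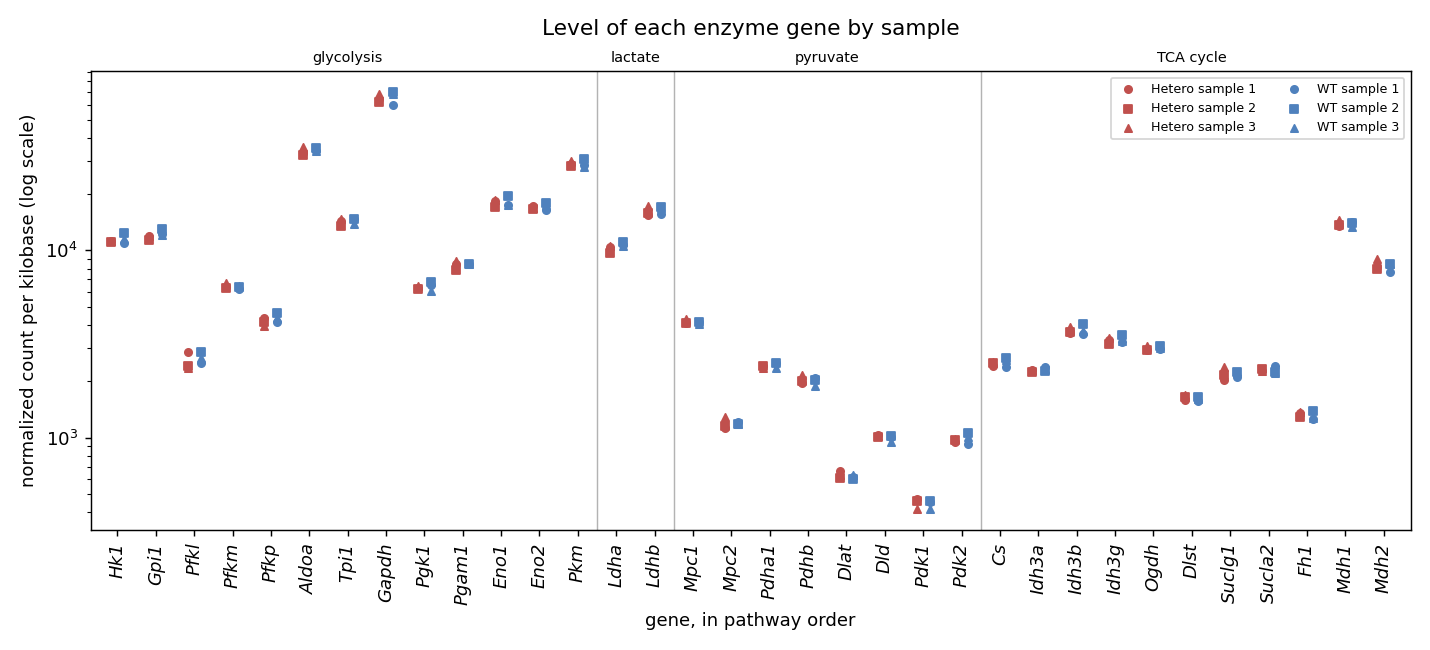
Normalized count per kilobase of transcript (log axis) for each of the 34 genes in pathway order; each point is 1 sample, with Hetero samples left of WT samples. Gapdh, Aldoa and Pkm are highest and Pdk1 is lowest, and the 6 points of a gene lie close together compared with the distances between genes.

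Phosphofructokinase commits sugar to glycolysis and has a muscle (Pfkm), a platelet (Pfkp) and a liver (Pfkl) isoenzyme. Pfkm, on chromosome 15 (98092589 to 98132451, GRCm38, plus strand), made up 46.8%, 48.9% and 51.7% of the family's signal per kilobase in Hetero samples 1 to 3 and 48.2%, 46.0% and 47.9% in WT samples 1 to 3. Pfkp, on chromosome 13 (6579768 to 6648777, minus strand), made up 32.1%, 32.2% and 30.2% in Hetero and 32.3%, 33.3% and 32.3% in WT. All 3 Hetero shares of Pfkp lay below all 3 WT shares, though Hetero sample 2 and WT sample 3 nearly met. The mean difference in the Pfkp share was -1.17 percentage points, with an exact two-sided permutation p of 0.1, which is the smallest that 3 against 3 samples allow (0.6 after Benjamini-Hochberg adjustment over the 6 shares tested). Without Hetero sample 3 this difference was -0.52 points. Pfkl, on chromosome 10 (77986947 to 78010083, minus strand), averaged 19.3% ± 1.56 in Hetero and 19.9% ± 0.66 in WT (SD, n = 3 each). The sizes of the shares depended on the length used: with the union of all exons, Pfkm held 72.3% in Hetero and 70.9% in WT, and Pfkp 11.9% in Hetero and 12.5% in WT, which placed it below Pfkl (15.8% in Hetero and 16.6% in WT).

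Enolase was split almost evenly between the ubiquitous Eno1 (chromosome 4, 150236721 to 150248879, plus strand) and the neuronal Eno2 (chromosome 6, 124760053 to 124769673, minus strand). The Eno2 share was 48.6%, 49.3% and 47.4% in Hetero samples 1 to 3 and 48.4%, 47.9% and 50.002% in WT samples 1 to 3. The groups overlapped (difference -0.32 points, exact permutation p = 0.8). With the union of exons Eno2 was the larger of the pair, at 58.2% in Hetero and 58.5% in WT. The other enolases were minor: Eno3, the muscle form, had 0.68% ± 0.066 of a family widened to Eno3 and Eno4 in Hetero and 0.68% ± 0.11 in WT (SD, n = 3 each).

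Lactate dehydrogenase is a tetramer of the Ldha (muscle) and Ldhb (heart) subunits, and Ldhb-rich tetramers are associated with oxidation of lactate. Ldhb (chromosome 6, 142490249 to 142507957, minus strand) supplied 59.7%, 62.0% and 62.1% of the pair in Hetero samples 1 to 3 and 59.5%, 60.6% and 61.6% in WT samples 1 to 3, against Ldha on chromosome 7 (46841475 to 46855627, plus strand). The ranges overlapped (difference 0.72 points, exact permutation p = 0.5). The size of the Ldhb share depended on the length used. With the union of exons it was 74.2% in Hetero and 73.7% in WT, and without division by length 57.8% in Hetero and 57.0% in WT. Among the kinases that switch off pyruvate dehydrogenase, Pdk2 per kilobase exceeded Pdk1 and supplied 66.7%, 68.0% and 70.2% of the pair in Hetero and 67.1%, 69.6% and 70.9% in WT. These ranges overlapped as well (difference -0.91 points, exact permutation p = 0.7). The order of the kinases rested on the division by length: without it Pdk2 held 48.3% in Hetero and 49.3% in WT. Single samples moved these differences, which ran from -1.95 to -0.070 points for Pdk2 (without WT sample 1 and WT sample 3), from 0.21 to 1.50003 points for Ldhb (without WT sample 1 and Hetero sample 1) and from 0.49 to 2.93 points for Pfkm (without Hetero sample 3 and Hetero sample 1). The adjusted p of each of the 5 shares other than that of Pfkp was 0.8.

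**Figure D2:**
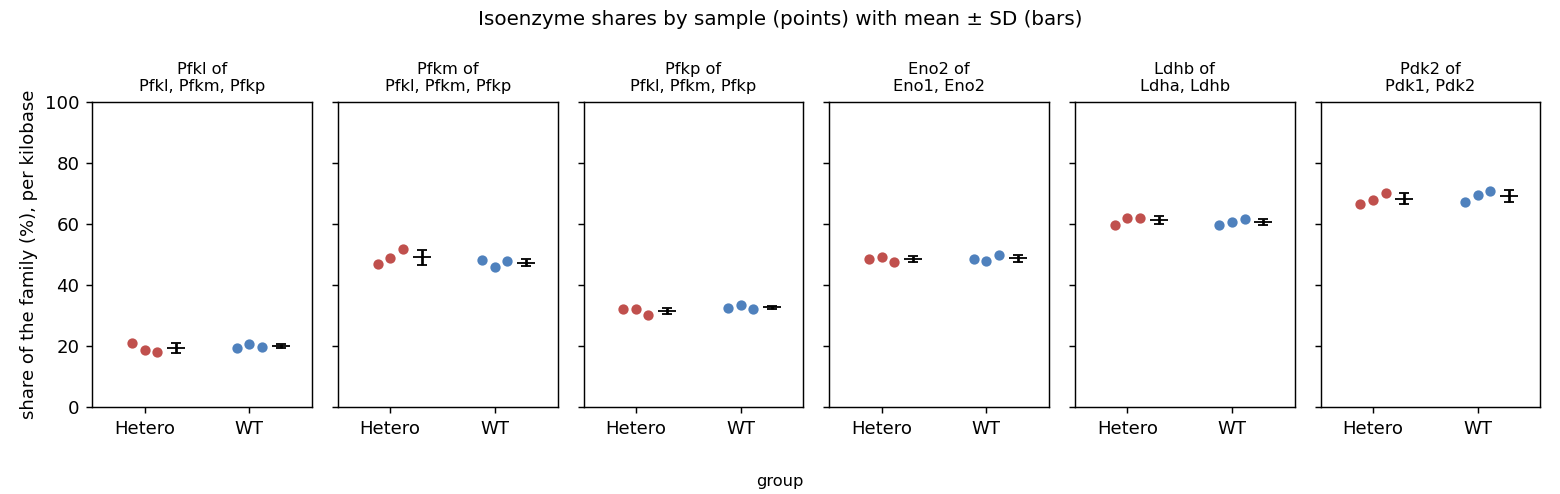
Share of the named gene in its isoenzyme family, in percent of the summed normalized counts per kilobase, in Hetero (left) and WT (right) samples; points are samples and bars the mean ± SD. Hetero and WT points overlap in 5 panels, and in the Pfkp panel the Hetero shares (30.2% to 32.2%) lie just below the WT shares (32.3% to 33.3%).

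Families that include genes outside the set were described without a test. Hk1 carried 95.8% ± 0.22 of the hexokinase signal in Hetero and 95.6% ± 0.23 in WT (SD, n = 3 each), Hkdc1, a hexokinase-like gene, 3.52% ± 0.22 in Hetero and 3.51% ± 0.24 in WT, and Hk2, the insulin-responsive form, 0.40% ± 0.041 in Hetero and 0.47% ± 0.090 in WT. With the longest transcript Hk1 held 87.5% in Hetero and 87.3% in WT, and Hkdc1 11.04% in Hetero and 11.01% in WT. Aldoa carried 74.5% ± 0.75 of aldolase in Hetero and 74.6% ± 1.85 in WT, and Aldoc 25.4% ± 0.75 in Hetero and 25.3% ± 1.84 in WT. With Pdk3 and Pdk4 included, Pdk2 remained the largest kinase, with 53.3% ± 1.68 in Hetero and 54.0% ± 1.79 in WT. Succinyl-CoA ligase pairs the shared subunit Suclg1 with an ADP-forming (Sucla2) or a GDP-forming (Suclg2) partner, and Sucla2 held 48.1% ± 2.03 of the 3 genes in Hetero and 48.0% ± 2.14 in WT, whereas Suclg2 held 5.96% ± 0.22 in Hetero and 5.72% ± 0.44 in WT. The catalytic Idh3a was the least abundant subunit of NAD-dependent isocitrate dehydrogenase by this measure, with 24.5% ± 0.57 in Hetero and 24.6% ± 1.39 in WT. This order rested on the division by length. Without it Idh3g was lowest, at 4396 in Hetero and 4468 in WT, against 5679 in Hetero and 5800 in WT for Idh3a.

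The start regions of the enolase and lactate dehydrogenase genes differ in sequence. They are shown from RefSeq (GRCm38.p6) as 250 bases before to 50 after the start, 5′ to 3′ on the gene's strand, taking the first start listed for a gene. Capitals mark matches on either strand to ACGTG (core of the hypoxia response element; CACGTG, the E-box, contains it), TATAAA or CCAAT.
Ldha (chr7:46845554-46845853, plus): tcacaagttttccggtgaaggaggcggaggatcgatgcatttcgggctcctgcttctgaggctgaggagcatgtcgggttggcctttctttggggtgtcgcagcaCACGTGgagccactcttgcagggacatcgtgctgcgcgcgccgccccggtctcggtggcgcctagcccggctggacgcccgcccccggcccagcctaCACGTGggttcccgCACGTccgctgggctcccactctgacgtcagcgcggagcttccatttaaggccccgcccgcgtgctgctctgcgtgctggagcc
Ldhb (chr6:142507908-142508207, minus): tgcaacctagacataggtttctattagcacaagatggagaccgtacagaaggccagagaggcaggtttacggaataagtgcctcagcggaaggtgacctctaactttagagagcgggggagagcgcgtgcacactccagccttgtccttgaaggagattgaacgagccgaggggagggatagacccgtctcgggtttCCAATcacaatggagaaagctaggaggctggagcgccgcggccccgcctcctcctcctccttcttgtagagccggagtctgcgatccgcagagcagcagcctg
Eno1 (chr4:150236458-150236757, plus): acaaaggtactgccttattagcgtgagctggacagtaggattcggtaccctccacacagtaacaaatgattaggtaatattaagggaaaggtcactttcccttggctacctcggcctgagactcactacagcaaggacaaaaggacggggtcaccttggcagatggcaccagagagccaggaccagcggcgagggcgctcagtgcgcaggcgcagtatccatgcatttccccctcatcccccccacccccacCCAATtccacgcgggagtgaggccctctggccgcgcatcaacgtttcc
Eno2 (chr6:124769624-124769923, minus): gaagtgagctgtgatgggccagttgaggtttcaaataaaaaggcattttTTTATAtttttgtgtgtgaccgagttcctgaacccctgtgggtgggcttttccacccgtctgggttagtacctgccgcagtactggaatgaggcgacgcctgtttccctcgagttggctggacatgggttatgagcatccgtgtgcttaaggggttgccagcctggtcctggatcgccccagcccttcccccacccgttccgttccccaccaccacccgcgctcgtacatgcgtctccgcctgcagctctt
The Ldha window shown held ACGTG at 3 places, 2 of them within CACGTG, and the windows of Ldhb, Eno1 and Eno2 held none. Eno2 had a TATAAA match far upstream of its start, and Ldhb and Eno1 had 1 CCAAT each in the windows shown. The result depended on the start taken. The window of the other listed Ldha start (chr7:46846832-46847131) held no match to any of these motifs. The windows of the further Eno1 starts held 2 CCAAT matches each and no ACGTG. RefSeq windows were found for 33 of the 34 genes, all but Idh3a. ACGTG occurred in 20 of their 51 windows (39.2%), some of which overlap, against 19.6% of all 32851 windows of the same length. TATAAA occurred in 1 of the 51 (1.96%), against 13.6% of all windows, and CCAAT in 47.1%, against 37.4%. The 13 genes with ACGTG in a window were Hk1, Pfkm, Aldoa, Gapdh, Pgk1, Pgam1, Pkm, Ldha, Pdhb, Pdk2, Idh3g, Ogdh and Mdh1, and Ogdh alone supplied 6 of the 20 windows. A match is a description of letters and does not show that a factor binds.

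In the comparison of Hetero with WT cortex, the 34 transcripts were close to level. None passed an adjusted p under 0.05 in limma (0 higher and 0 lower), as was the case for all 14969 genes tested, where 0% passed in each direction. At an unadjusted p under 0.05 there were 0 of the 34, beside 3.83% of all tested genes, and the smallest p of a member was 0.11. The log2 changes ran from -0.09 to 0.04, with a median of -0.02 beside -0.0019 over all tested genes. A lower fitted value in Hetero was found for 23 members, beside 50.9% of all tested genes, and a higher one for 11, beside 49.1%. This split moved with single samples: 28 members were lower without Hetero sample 3, 16 without Hetero sample 2 and 15 without WT sample 2. Every member had a limma adjusted p of 0.99955.

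The precision was high for these abundant genes. Median standard errors on the log2 scale were 0.056 for the members and 0.097 for all tested genes, and 0.066 for the 5114 tested genes whose mean fell in the members' range (1219 to 63440). Of the members' 95% ratio intervals, the lowest bound was 0.835 (Pfkl) and the highest 1.13 (Mdh2). All 34 intervals thus stayed within 1.5-fold either way, as did those of 80.9% of all tested genes. The groups did not overlap for 2 members, Gpi1 and Ldha, which is 5.88% of the set, beside 8.72% of all tested genes.

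**Figure D3:**
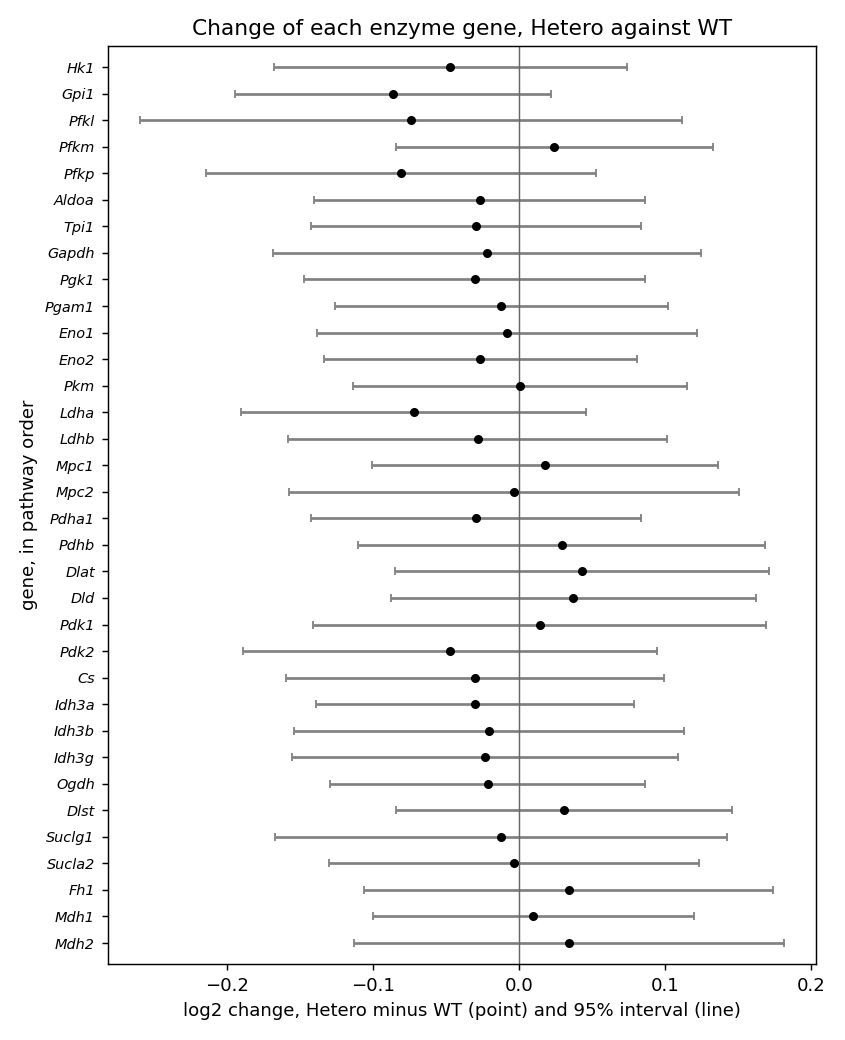
Log2 change of each gene, Hetero minus WT (points), with its 95% limma interval (lines), in pathway order. Points run from -0.09 (Gpi1) to 0.04 (Dlat), and every interval crosses 0.

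At the entry of glycolysis, Hk1 read 14006, 13742 and 14048 in Hetero samples and 13598, 15342 and 14291 in WT samples, a log2 change of -0.05, which was -0.088 without WT sample 1 and -0.00093 without WT sample 2. Gpi1, which turns glucose 6-phosphate into fructose 6-phosphate (chromosome 7, 34201330 to 34230336, minus strand), had 15790, 14999 and 15648 normalized counts in Hetero samples 1 to 3 and 16203, 17105 and 15999 in WT samples 1 to 3. Each Hetero value was below each WT value, with Hetero sample 1 and WT sample 3 only slightly apart. Its log2 change of -0.09 ± 0.048 (SE) had a limma p of 0.11 (adjusted p = 0.99955) and was the most negative of the set with all 6 samples. Other members, among them Pfkl, Pfkp and Ldha, were lower when Hetero sample 1, 2 or 3 or WT sample 1 was left out. Pfkl read 6169, 5207 and 5079 in Hetero and 5387, 6186 and 5709 in WT, the widest scatter within a group among the members, with Hetero sample 1 near the top of the WT range and the other Hetero samples below it. Its change was -0.07 ± 0.083 (SE). Without Hetero sample 1 it was -0.16 (limma adjusted p = 0.99997). Without WT sample 1 it was -0.12, and without WT sample 2 -0.02. Pfkp differed by -0.08 ± 0.060 (SE), or by -0.04 without WT sample 2 and -0.12 without Hetero sample 1. Pfkm, the most abundant of the 3, differed by 0.02 ± 0.049 (SE).

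In the later steps of glycolysis the samples of the groups overlapped for every gene. Aldoa averaged 35225 ± 1969 in Hetero and 35857 ± 785 in WT (SD, n = 3 each). Tpi1, which interconverts the triose phosphates, averaged 17085 ± 676 in Hetero and 17436 ± 610 in WT, and Pgk1, the X-linked first ATP-forming enzyme, 11547 ± 152 in Hetero and 11802 ± 620 in WT. Pgam1, the mutase that follows, differed by -0.01. Eno1 read 20413, 19111 and 20798 in Hetero and 19553, 21706 and 19446 in WT, and Eno2 25032, 24140 and 24337 in Hetero and 23779, 25902 and 25232 in WT. For both enolases WT sample 2 was the highest sample. Pkm had almost the same mean in both groups, 29893 ± 1000.5 in Hetero and 29895 ± 1489 in WT (SD, n = 3 each).

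Of the lactate dehydrogenase pair, Ldha had 10271, 9467 and 10340 in Hetero and 10431, 10821 and 10348 in WT. Hetero sample 2 was the low one, while Hetero sample 3 and WT sample 3 were nearly equal, so the absence of overlap rested on a gap of a few counts. The log2 change of Ldha was -0.07 ± 0.053 (SE) with a ratio of 0.951 and a 95% interval of 0.877 to 1.03. It was -0.03 without Hetero sample 2. Ldhb read 13158, 13368 and 14629 in Hetero and 13263, 14380 and 14311 in WT, with a change of -0.03.

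Pyruvate enters mitochondria through a carrier made of Mpc1 and Mpc2. Mpc1 averaged 3030 ± 97.0 in Hetero and 2992 ± 31.9 in WT, and Mpc2 1218 ± 82.7 in Hetero and 1219 ± 13.8 in WT (SD, n = 3 each). In both genes Hetero sample 3 was the highest sample, with 3142 for Mpc1 and 1313 for Mpc2. The pyruvate dehydrogenase subunits gave changes of -0.03 for Pdha1, the X-linked catalytic subunit, 0.03 for its partner Pdhb, 0.04 for Dlat and 0.04 for Dld, the dehydrogenase shared with the oxoglutarate complex. Dld was close to constant in Hetero, at 2620, 2578 and 2582, against 2577, 2600 and 2408 in WT. Pdk1 read 2445, 2366 and 2160 in Hetero and 2360, 2388 and 2153 in WT, so sample 3 was the lowest in both groups. Pdk2 read 2119, 2176 and 2200 in Hetero and 2085, 2365 and 2269 in WT, a log2 change of -0.05 that was -0.098 without WT sample 1 and -0.0071 without WT sample 2.

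The TCA cycle genes spanned log2 changes of -0.03 to 0.03 and overlapped between the groups in all 11 cases. Cs, citrate synthase, averaged 7274 ± 211 in Hetero and 7434 ± 446 in WT (SD, n = 3 each). Idh3a, Idh3b and Idh3g differed by -0.03, -0.02 and -0.02. Ogdh, the first subunit of the oxoglutarate dehydrogenase complex, differed by -0.02 and Dlst, its second, by 0.03. Suclg1 read 2091, 2218 and 2436 in Hetero and 2172, 2306 and 2313 in WT, with both the lowest and the highest sample in Hetero. Sucla2 was at 3296 ± 55.1 in Hetero and 3306 ± 163 in WT, and Fh1, fumarase, at 2124 ± 76.9 in Hetero and 2075 ± 109 in WT. Of the malate dehydrogenases, the cytosolic Mdh1 differed by 0.01 and the mitochondrial Mdh2 by 0.03. Mdh2 was highest in Hetero sample 3 (7874) and lowest in WT sample 1 (6663).

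Glycolytic genes were often high or low in the same sample. WT sample 2 was the highest of the 6 samples for 10 of 13 glycolytic genes and for 18 of the 34 members (52.9%), beside 15.1% of all tested genes. Hetero sample 3 was the highest for 11 members (32.4%, beside 22.1% of all tested genes), while Hetero sample 2 and WT sample 3 were highest for 0 (beside 15.5% of all tested genes for Hetero sample 2 and 18.3% for WT sample 3). The lowest sample was Hetero sample 2 for 8 members (23.5%, beside 15.2% of all tested genes), WT sample 1 for 10 (29.4%, beside 15.7%) and WT sample 3 for 9 (26.5%, beside 17.1%). Among the 13 glycolytic genes it was Hetero sample 2 for 5 and WT sample 1 for 4. The median deviation of the glycolytic genes from their own mean over the 6 samples was -0.01, -0.08 and 0.04 in Hetero samples 1 to 3 and -0.03, 0.08 and 0.005 in WT samples 1 to 3, on the log2 scale. The same deviation over all tested genes lay between 0.0008 and 0.0036. Summed neuronal markers, which include Eno2, were 284997, 276363 and 266862 in Hetero and 282313, 285893 and 274322 in WT, and summed astrocyte markers 173510, 185997 and 176688 in Hetero and 179435, 197293 and 202621 in WT; their part in the pattern was not tested. Even so the members varied little: the median within-group SD was 0.061 on the log2 scale, beside 0.12 over all tested genes and 0.078 over tested genes in the members' range of means.

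**Figure D4:**
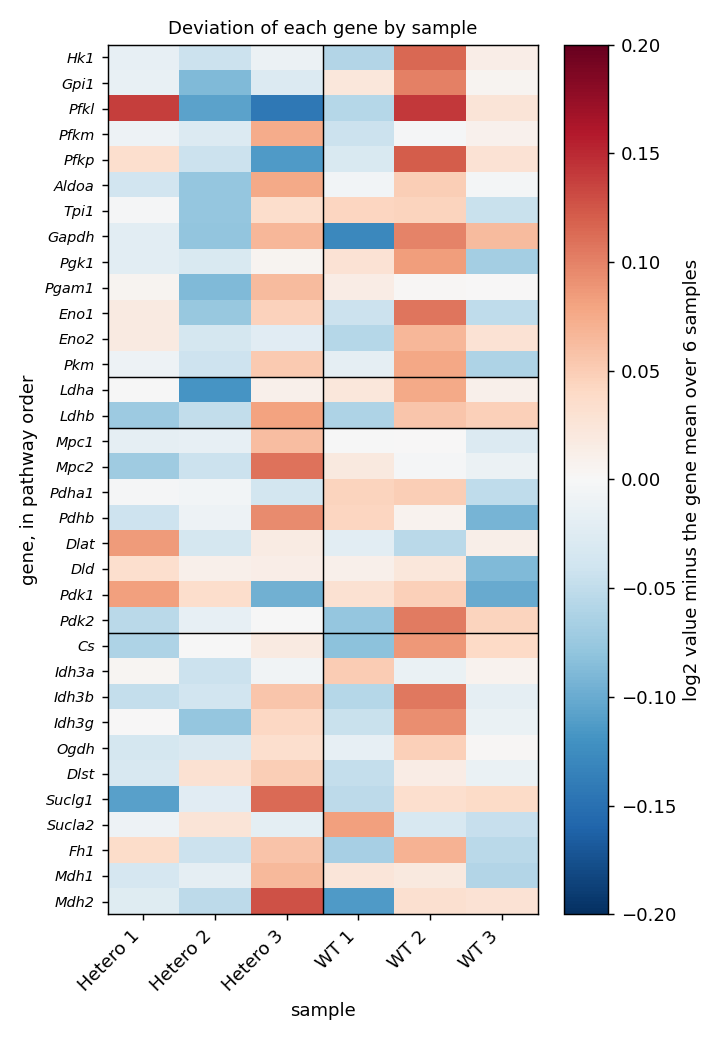
Log2(value + 1) of each gene minus its mean over the 6 samples (colour), in Hetero samples (left 3 columns) and WT samples (right 3 columns); rows are genes in pathway order and lines divide glycolysis, lactate, pyruvate and TCA cycle genes. The WT sample 2 column is red for most glycolytic rows (median 0.08) and the Hetero sample 2 column mostly blue (median -0.08).

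Gapdh (chromosome 6, 125161715 to 125166467, minus strand) differed from the other members in its copies. Of the 1187 pseudogene rows of the table, 83 matched a member's transcript at 90% identity or more over at least 50% of their length, and 74 of these matched Gapdh. The other 9 rows belonged to 8 members and averaged 13.4 at most. One Gapdh copy, Gm7336, a processed pseudogene on chromosome 7 (51746647 to 51747878, plus strand) that is 99.8% identical to Gapdh over 1232 bases, averaged 10955, whereas the next copy averaged 199. Gm7336 is named because of its value. It read 8829, 11170 and 11130 in Hetero samples 1 to 3 and 13773, 11521 and 9306 in WT samples 1 to 3. WT sample 1 thus had the highest Gm7336 and the lowest Gapdh value of all samples.

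Reads from such a copy and from Gapdh can be exchanged, so both values are uncertain. Gapdh itself read 62430, 59990 and 66306 in Hetero and 57915, 67858 and 66141 in WT. Gapdh with its 74 copies read 72508, 72060 and 78413 in Hetero and 72669, 80407 and 76608 in WT. The log2 difference between Hetero and WT was -0.02 for Gapdh alone (exact permutation p = 0.9) and -0.04 for the sum (exact permutation p = 0.5), each two-sided with 3 samples a group. The copy amounted to 14.1 to 18.6 counts per 100 of Gapdh in Hetero and 14.1 to 23.8 in WT.

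**Figure D5:**
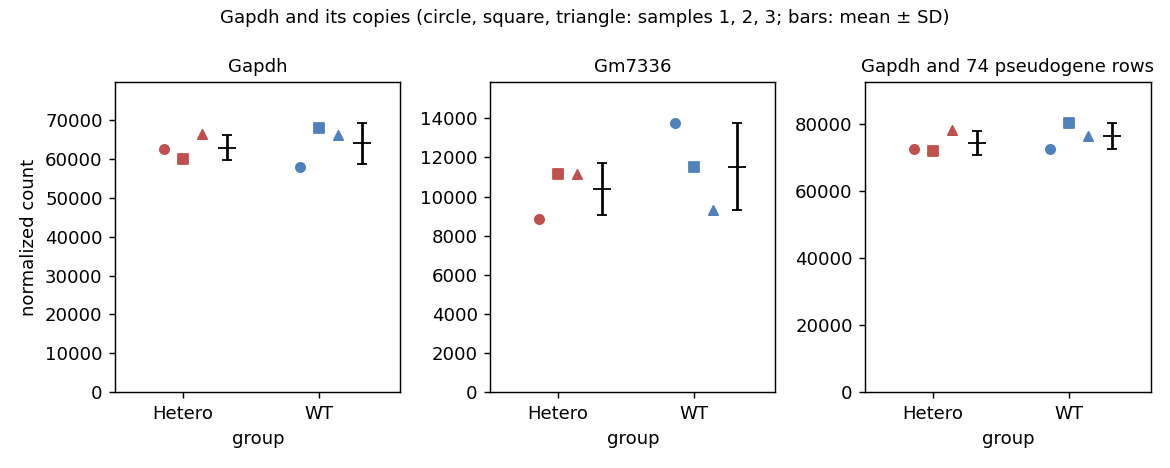
Normalized counts of Gapdh (left), its pseudogene Gm7336 (middle) and Gapdh with 74 matching pseudogene rows (right) in Hetero and WT samples; symbols mark samples 1 to 3 and bars the mean ± SD. WT sample 1 (circle) is lowest for Gapdh at 57915 and highest for Gm7336 at 13773, and Hetero and WT overlap in all panels.

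Genes around these steps were read from 6 lists, and 0 of their 96 tested members passed the adjusted threshold in limma in either direction. Of 36 tested further isoenzymes, subunits and regulators, 11 had a higher and 25 a lower fitted value in Hetero, with a median log2 change of -0.02. Among those with a higher value the smallest p was that of Pcx, the pyruvate carboxylase that refills the cycle, at 0.11 ± 0.061 (SE). Succinate dehydrogenase gave -0.07 for Sdha, its flavoprotein, and -0.00071, 0.0087 and -0.0086 for the partners Sdhb, Sdhc and Sdhd. Sdha read 10349, 10391 and 10544 in Hetero and 10843, 11280 and 10814 in WT, so its groups did not overlap (limma adjusted p = 0.99955). In this list the groups did not overlap for 3 of 36 genes (Sdha and Pgam2, lower in Hetero, and Pcx, higher), beside 8.72% of all tested genes. Aldoc read 24233, 24971 and 28334 in Hetero and 23016, 27735 and 27788 in WT. Eno3 and Hk2 differed by -0.01 and -0.28, Pdk3 and Pdk4 by -0.08 and 0.05, and Eno1b, at most 10.8 in any sample, was not tested.

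Glucose and monocarboxylate transporters gave higher fitted values for 8 genes in Hetero and lower ones for 4 (median 0.02). The smallest p were those of Slc2a13, a proton-coupled inositol transporter, at 0.12 ± 0.072 (SE), and Slc2a3, the neuronal glucose transporter, at -0.08 ± 0.054 (SE). The pentose phosphate pathway, which makes NADPH, had 4 higher and 4 lower members, led by Rpia (0.12) and Pgd (-0.06). Glycogen genes gave higher fitted values for 5 genes in Hetero and lower ones for 12 (median -0.03). Gbe1, the branching enzyme, read 301, 332 and 290.4 in Hetero and 355, 377 and 369 in WT, a log2 change of -0.26 ± 0.094 (SE) with a limma p of 0.022 (adjusted p = 0.99955), while Pygm, a glycogen phosphorylase, stood at 0.09. Among hypoxia and mitochondrial biogenesis factors, 7 were higher and 7 lower, with Esrrg at 0.18 and Hif1a, the oxygen-regulated subunit of the hypoxia factor, at -0.10.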

How the data were processed

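The deposited table gives each gene's normalized count in the 6 samples. It was treated as signal, being fractional and scaled by the authors, with similar sample totals. The submitters' processing notes name DESeq2 1.19.11, Salmon 0.11.2 and R 3.6.0, and GRCm38 as build, in roles not given in the sources used here, as is the annotation. Libraries were stranded poly(A) per the labels' protocols. Values under 60 were whole multiples of 1 common step (within 0.02) for 15.5% to 28.0% of them, depending on the sample, so whole reads could not be recovered and no count test was run. The total divided by that step estimated depth. Scaling hides depth, so shallower libraries carry more counting error.

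Groups came from sample titles. Of 17889 identifiers 17875 matched GENCODE M21 on GRCm38, and coordinates are 1-based. Hetero was compared with WT by limma 3.58.1 in R 4.3.3 (trend and robust fitting, two-sided) on log2(value + 1). The 14969 genes whose mean reached 10 were tested, with Benjamini-Hochberg adjustment over all of them; all 34 members were tested. Shares used exact permutation tests (scipy 1.17.1). Copies were found with blastn 2.17.0. The fit was tested on simulated data with 50 changed genes at each fold. It called 10% of 1.25-fold, 50% of 1.5-fold, 78% of 2-fold and 90% of 3-fold changes, with 4 false calls. Small changes can thus be missed. Replicates of a group differed by a median absolute log2 value of 0.095 to 0.15, so none was a duplicate. Alternatives were another variance model, rescaling by trimmed mean of M values, median centring, other filters and pseudocounts, a replicate block, other transcript lengths and leaving out each sample. The members, lists and the naming rule (all members, Cyfip2, the smallest p in each direction of each list, and genes completing the steps) were chosen with earlier results of these data known. Some genes that the rule names are not reported here.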

Additional observations from a re-analysis of the deposited data

How the results depend on the processing

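No member passed an adjusted p under 0.05 under any of the 14 alternatives of the limma fit. Over all genes, 0 were called in most of them, 2 with the replicate block (Cyfip2 and Jun), and 0 to 1 when 1 sample was left out (Gm10240 without Hetero sample 2, Rpl15-ps3 without WT sample 1). The sample titles number the samples and do not state a pairing. The deviations of same-numbered samples from their group means had correlations of -0.005, 0.0044 and 0.23. Only the samples numbered 3 correlated best with their own number. The 0.23 of the samples numbered 3 was the highest of any Hetero and WT pair. An unadjusted limma p under 0.05 was found for 788 genes with the block and 573 without it. The limma adjusted p of Cyfip2 was 0.0016 with the block and 0.31 without it. Whether same-numbered samples shared a batch was not tested. In this balanced layout the block leaves each share's mean difference as it was, so no direction could change. The exact p of the shares with the block were 0.25 to 1, and 0.25 is the smallest that this test of same-numbered pairs allows. The block called 0 members. The median log2 change of the members lay between -0.038 and 0.0027 when 1 sample was left out. Under median centring Pkm stood at -0.0011. The sign of 21 members and 2 shares turned when some 1 sample was left out, in 37 of 204 member values, none of them called.

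Leaving out each sample in turn, the log2 changes of glycolytic genes ran from -0.0068 to 0.044 for Pfkm, -0.072 to 0.0051 for Aldoa, -0.059 to 0.0019 for Tpi1, -0.092 to 0.022 for Gapdh, -0.071 to 0.0039 for Pgk1, -0.047 to 0.029 for Pgam1, -0.036 to 0.043 for Eno1, -0.061 to 0.00031 for Eno2 and -0.030 to 0.040 for Pkm. They ran from -0.075 to 0.00093 for Ldhb, -0.0088 to 0.031 for Mpc1, -0.058 to 0.031 for Mpc2, -0.011 to 0.058 for Pdhb and -0.033 to 0.066 for Pdk1. In the TCA cycle they ran from -0.079 to 0.0061 for Cs, -0.054 to 0.027 for Idh3b, -0.052 to 0.017 for Idh3g, -0.071 to 0.039 for Suclg1, -0.027 to 0.037 for Sucla2, -0.020 to 0.029 for Mdh1 and -0.021 to 0.069 for Mdh2. The share differences ran from -1.47 to 0.031 points for Pfkl and from -0.76 to 0.30 points for Eno2.

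With 3 samples a group an exact test cannot give a p under 0.1. Lengths of transcripts come from the annotation and not from these samples, so shares between genes are less certain than their differences between groups.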

Other observations

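The malate-aspartate and mitochondrial carrier list held the 2 genes furthest from level among the 6 lists around glycolysis and the TCA cycle by p, both carriers that move glutamate together with a proton across the inner mitochondrial membrane. Slc25a22 read 8203, 7657 and 7760 in Hetero samples 1 to 3 and 8806, 9749 and 9232 in WT samples 1 to 3, a log2 change of -0.23 ± 0.056 (SE). Slc25a18 read 1687, 1634 and 1903 in Hetero and 1513, 1287 and 1488 in WT, a log2 change of 0.29 ± 0.085 (SE). The unadjusted limma p were 0.0021 for Slc25a22 and 0.0077 for Slc25a18, with an adjusted p of 0.99955 for both. The groups did not overlap for either gene, beside 8.72% of all tested genes. Both genes were picked by their p, so this lack of overlap follows largely from the choice and adds no support. Of the other 7 genes of the list, Slc25a10, the dicarboxylate carrier, read 503, 535 and 498 in Hetero and 460.5, 455 and 475 in WT, also without overlap (log2 change 0.14 ± 0.079, SE). Slc25a13, an aspartate-glutamate carrier, was low, with 25.6 to 30.1 in Hetero and 29.5 to 40.1 in WT, and its log2 change of -0.34 ± 0.23 (SE) was the largest in size of the list. The remaining 5 (Got1, Got2, Slc25a1, Slc25a11 and Slc25a12) lay between -0.05 and 0.03 and overlapped between the groups. Slc25a18 is known from astrocytes. The mean deviation of the astrocyte markers ran from -0.11 to 0.05 in Hetero and from -0.05 to 0.07 in WT, and their part in these values was not tested.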
